A study of Homo sapiens with 14 samples.

Results

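Guide abundance was compared between the 2 oxaliplatin doses of the SW620 knockout screen, 0.5 µM and 0.38 µM, with all 77441 guides summarised per gene. These are 2 of the 14 libraries of the series, each the only library of its condition. SW620 is an established human colorectal cancer line; here the cells carried Cas9 and the Brunello guide library, and they were grown for 20 days in 0.5 µM or in 0.38 µM oxaliplatin. An untreated library of day 20 and a library of day 0, from cells with the same Cas9 and guide library, served as references. The other 10 libraries of the series (RKO cells and the activation screens) were not used.

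Oxaliplatin is a platinum drug that binds to DNA and crosslinks its bases, which blocks replication until the lesions are repaired. In a pooled knockout screen most cells receive a single guide, Cas9 cuts the gene it targets, and sequencing the guides counts the descendants of each cell. A guide gains share when the loss of its gene lets cells survive or divide better than the rest, and the several guides of a gene serve as separate tests of the same loss. A high count can come from many surviving cells or from the descendants of a few, and these 2 cases cannot be told apart here. The library holds 76441 targeting guides in 19114 genes, 4 per gene for 19107 of them, and 1000 non-targeting guides that cut no gene. The files identify guides by number, so the guides are named below by gene and not by sequence.

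The 4 libraries held between 47429044 and 69526489 counts. Because a few guides held much of the 0.5 µM library, its median guide had 174 counts, against 548 at 0.38 µM. Counts were therefore scaled by the median ratio over guides, and every fold below is relative to the median guide, on the log2 scale with a pseudocount of 5. A guide entered a comparison with a mean scaled count of 20 or more in the 2 libraries. Since each condition has 1 library, no test between conditions was possible, no p-value is given, and a gene or guide is called higher or lower when it passed a log2 fold of 1. Intervals on single counts cover counting error only.

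Counts at the higher dose were concentrated in far fewer guides. The guides holding 50 percent of all counts numbered 22460 at day 0, 21533 in untreated cells, 14158 at 0.38 µM and 3540 at 0.5 µM. The top 1 percent of guides (774) held 2.93% of counts at day 0, 3.20% in untreated cells, 9.55% at 0.38 µM and 31.5% at 0.5 µM. Guides at 0 counts were about as frequent at the 2 doses, 887 at 0.5 µM and 862 at 0.38 µM, against 307 in untreated cells. So at 0.5 µM the counts gathered in few guides with little change in the number at 0.

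**Figure D1:**
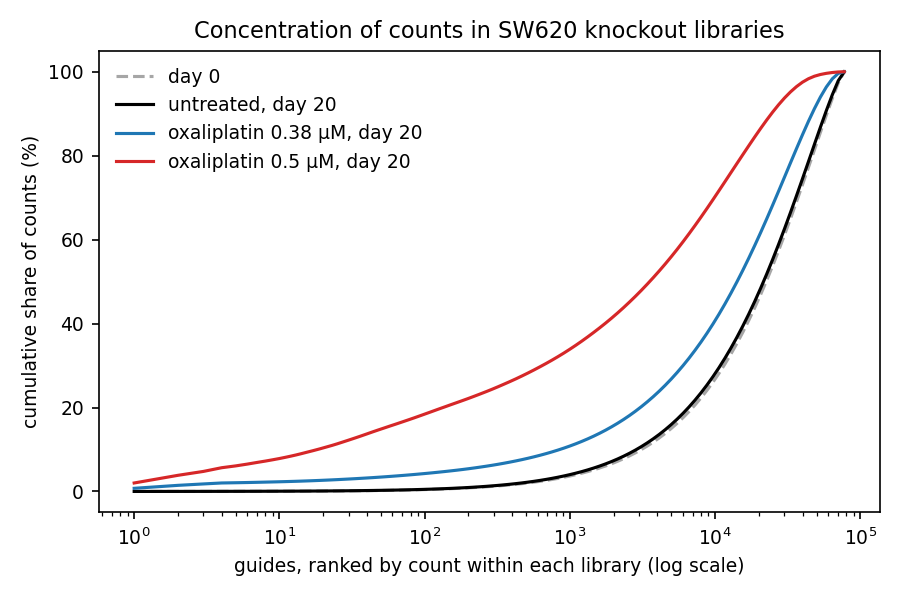
Cumulative share of counts (vertical axis, percent) held by the guides ranked from the most to the least abundant within each library (horizontal axis, log scale), with 1 line per SW620 knockout library. The day 0 and untreated lines lie on each other, the 0.38 µM line lies above them, and the 0.5 µM line is the highest, with 31.5% of counts in its top 774 guides.

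Most of the guides that took over at 0.5 µM were alone in their gene. The 100 most abundant guides held 18.4% of counts at 0.5 µM and 4.27% at 0.38 µM. At 0.5 µM they comprised 4 non-targeting guides and 96 targeting guides in 92 genes, of which 90 genes had 1 guide among them, WDR20 had 2 and SLC43A1 had 4. Among the top 774 guides at 0.5 µM, 714 of 727 genes had 1 guide, 11 had 2, and SLC43A1 and WDR20 had 4. At 0.38 µM the top 774 guides fell in 686 genes, of which 661 had 1 guide, and SLC43A1, SLC43A2 and WDR20 had 4. The median share of a gene's counts held by its most abundant guide was 65.3% at 0.5 µM and 46.4% at 0.38 µM. The genes in which 1 guide held over 90% numbered 2387 (12.5%) at 0.5 µM and 101 (0.529%) at 0.38 µM.

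SLC43A1, which encodes a transporter of large neutral amino acids, was the only gene with all 4 guides among the 10 most abundant at 0.5 µM. Its 4 guides had 1266696, 1140864, 584589 and 272311 counts at 0.5 µM, against 458835, 430644, 205495 and 139502 counts at 0.38 µM. In untreated cells the same guides had 1576, 1203, 1196 and 467 counts. All 4 guides were thus high at both doses and higher at the higher one. Together they held 5.21% of the counts at 0.5 µM (95% exact binomial interval 5.21 to 5.22%) and 2.02% at 0.38 µM (2.02 to 2.03%).

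The other 6 of the 10 most abundant guides at 0.5 µM belonged to 6 genes whose other guides stayed far below them. The top C9orf171 guide (a gene now named CFAP77) had 549575 counts at 0.5 µM and 14185 counts at 0.38 µM, while the gene's other 3 guides had 15 to 150 counts at 0.5 µM. The top BPNT1 guide (a nucleotide phosphatase) had 266220 counts at 0.5 µM and 2273 counts at 0.38 µM, against 54 to 352 counts for the other 3 at 0.5 µM. The corresponding guides of HAND2, OR8B3, UGT2B28 and SLC22A20 had 246378, 205531, 197138 and 184231 counts at 0.5 µM, against 1198, 2718, 711 and 535 counts at 0.38 µM. Each of these genes had 3 other guides, whose highest count at 0.5 µM was 133 for HAND2, 1974 for OR8B3, 265 for UGT2B28 and 1062 for SLC22A20.

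Guides that cut no gene spread apart as well. Between 0.5 and 0.38 µM the log2 fold of 991 non-targeting guides had an SD of 2.04 and a median of 0.68, while counting alone would give a median SD of 0.0658 for one of these guides. Of these guides 43.5% were higher and 22.3% were lower at 0.5 µM by the 2-fold measure. The 74808 targeting guides had an SD of 2.69 and a median of 0.03, with 37.0% higher and 37.4% lower. Guides in olfactory receptor genes, which colorectal cells are not known to need, had an SD of 2.65. For non-targeting guides it was 0.21 for untreated over day 0, 0.80 for 0.38 µM over untreated and 1.91 for 0.5 µM over untreated, and the last 2 share the untreated library.

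The guides of a gene did not move together. Of the 19107 genes with 4 guides, 17515 kept all 4 in each of the comparisons, and the SD of the log2 fold over the 4 guides was taken in these. The median SD was 0.27 for untreated over day 0 and 0.98 for 0.38 µM over untreated. It was 2.21 for 0.5 µM over untreated and 2.38 for 0.5 over 0.38 µM, where the central 80 percent of genes lay between 1.20 and 3.79. Over untreated, 15386 of the 17515 genes (87.8%) had a larger SD at 0.5 µM than at 0.38 µM. The 4 guides of the median gene spanned 39.0-fold between 0.5 and 0.38 µM. Guides of 1 gene lay 100-fold or more apart in 28.2% of genes (4939) for 0.5 over 0.38 µM, against 0.679% (119) for 0.38 µM over untreated. All 4 guides pointed in the same direction in 13.1% of genes (2297) for 0.5 over 0.38 µM. Over untreated this share was 14.4% at 0.5 µM and 14.7% at 0.38 µM, and for untreated over day 0 it was 22.2% (3889). Of the variance of guide folds, 0.899% lay between genes for 0.5 over 0.38 µM and the rest within genes. The part between genes was 4.07% for 0.38 µM over untreated and 27.3% for untreated over day 0.

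**Figure D2:**
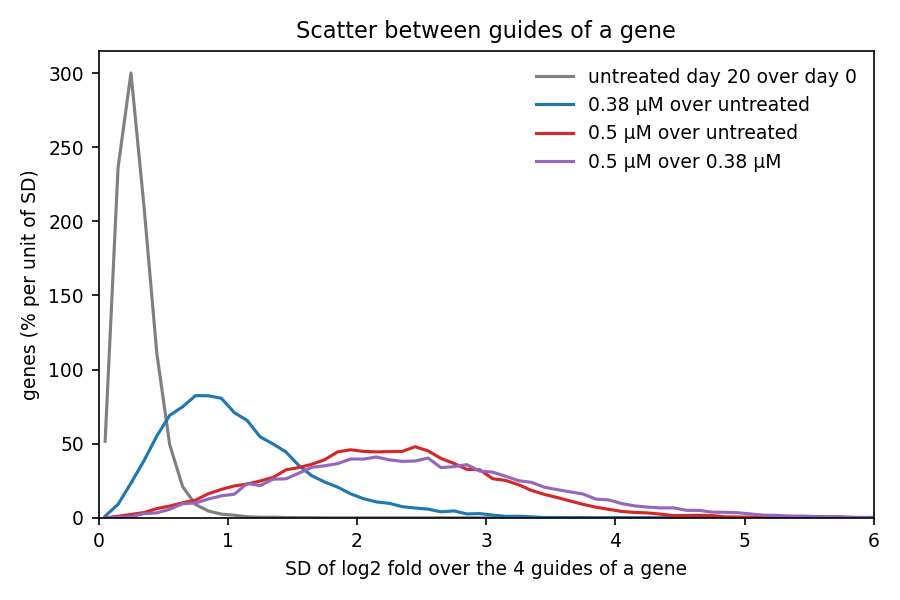
Distribution over 17515 genes (vertical axis, percent of genes per unit of SD) of the SD of the log2 fold over a gene's 4 guides (horizontal axis), with 1 line per comparison. The untreated over day 0 line peaks near its median of 0.27, and the lines that involve 0.5 µM lie broad around medians of 2.21 and 2.38.

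The widest genes show what this scatter looks like guide by guide. TBL3, a ribosome biogenesis factor, had 1 guide with 25290 counts at 0.5 µM and 15 counts at 0.38 µM, and its other 3 guides had 8, 16 and 1 counts at 0.5 µM, against 115, 64 and 212 counts at 0.38 µM. Its guide folds ran between -4.61 and 11.87, a range of 16.47. STK31 had 1 guide with 4292 counts at 0.5 µM and 1 count at 0.38 µM, while 2 of its other guides had 11 and 4 counts at 0.5 µM, against 726 and 728 counts at 0.38 µM. The 10 widest genes, TBL3, STK31, MTBP, KIF7, SDF2L1, CPVL, RAB9A, RNASE11, SLC22A20 and DEFB108B, had ranges down to 14.50. Fold sizes over 100 were reached mostly by lone guides. In 633 genes 648 targeting guides were 100-fold or more higher at 0.5 µM than at 0.38 µM; 15 of these genes had 2 such guides and none had 3. In the other direction 110 guides in 110 genes were 100-fold or more lower.

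The SLC43A1 guides moved almost as 1. Its log2 folds between 0.5 and 0.38 µM were 3.13, 3.09, 3.03 and 2.59, with a mean of 2.96 ± 0.25 (SD, n = 4 guides). Only 14 of the 17515 genes had a smaller SD over their guides. The SLC43A1 counts at 0.38 µM were far above the 548 counts of the median guide. Its SD was not compared with that of genes of like count. By its median of 3.06 the gene was in place 428 of 19013, and by its lowest guide it was in place 26. Over untreated its median was 11.09 at 0.5 µM and 8.26 at 0.38 µM, the highest of all genes at both doses.

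**Figure D3:**
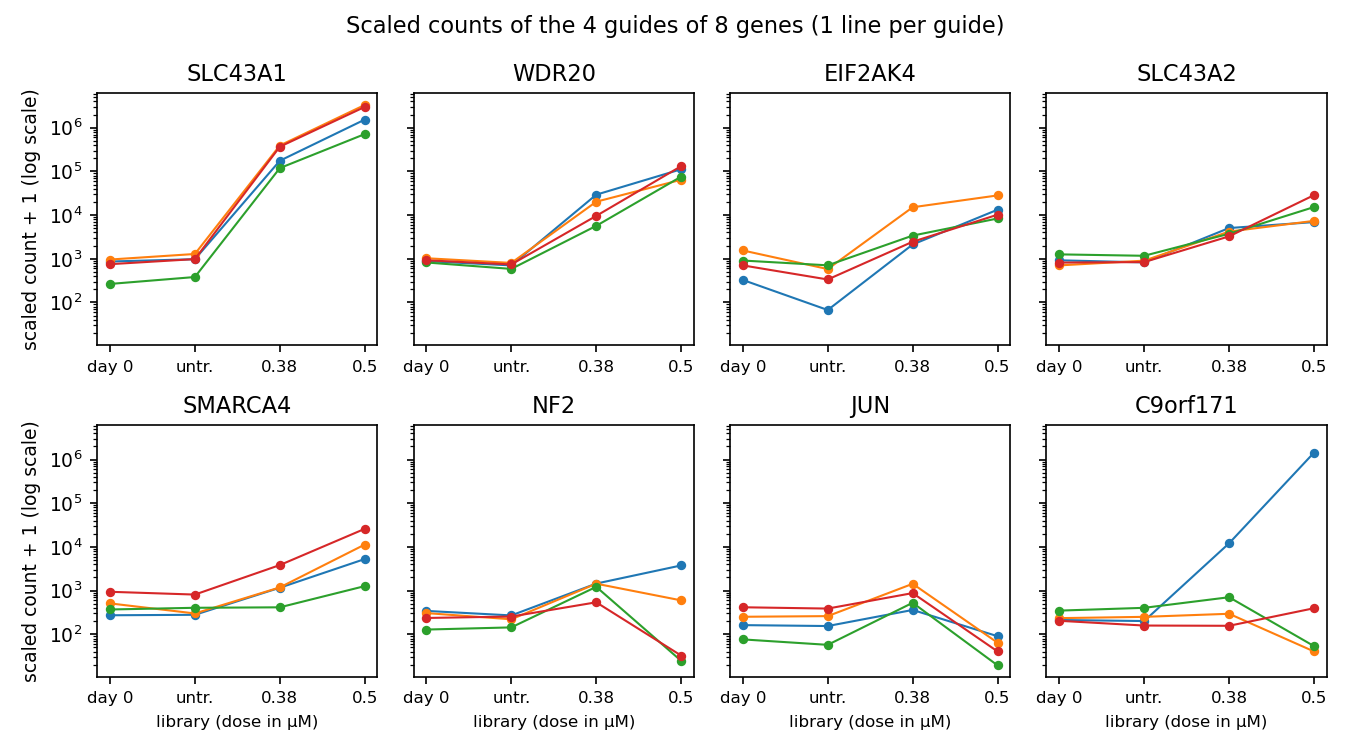
Scaled counts plus 1 (vertical axis, log scale) of the 4 guides of 8 genes, 1 line per guide, at day 0, in untreated cells (untr.) and at 0.38 and 0.5 µM (horizontal axis). The SLC43A1 and WDR20 guides climb together at each dose, the NF2 guides part at 0.5 µM, the JUN guides turn down, and a single C9orf171 guide leaves the other 3.

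Both losses and gains moved with a guide's abundance at the start. With guides in 5 equal bins of the scaled day 0 count, the median log2 fold of targeting guides between 0.5 and 0.38 µM was -0.98 in the scarcest bin, then -0.42, -0.08 and 0.30, and 0.62 in the most abundant. Their SD was 3.17, 2.90, 2.68, 2.42 and 2.07 in the same order. The share of guides that were lower at 0.5 µM was 49.8% in the scarcest bin and 24.0% in the most abundant, and the share that were higher was 31.6% and 42.6%. Non-targeting guides, of which 727 lie in the most abundant bin, had there a median of 0.74 and an SD of 1.87, and 18.8% were lower. In the next 2 bins down, targeting guides had medians of 0.30 and -0.08, against 0.50 and 0.42 for 204 and 50 non-targeting guides. Over genes, the median SD of the 4 guides was 2.74 in the bin of genes with the scarcest guides at day 0 and 2.04 in the most abundant. Abundance at the start and the gene's own effect were not separated further.

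**Figure D4:**
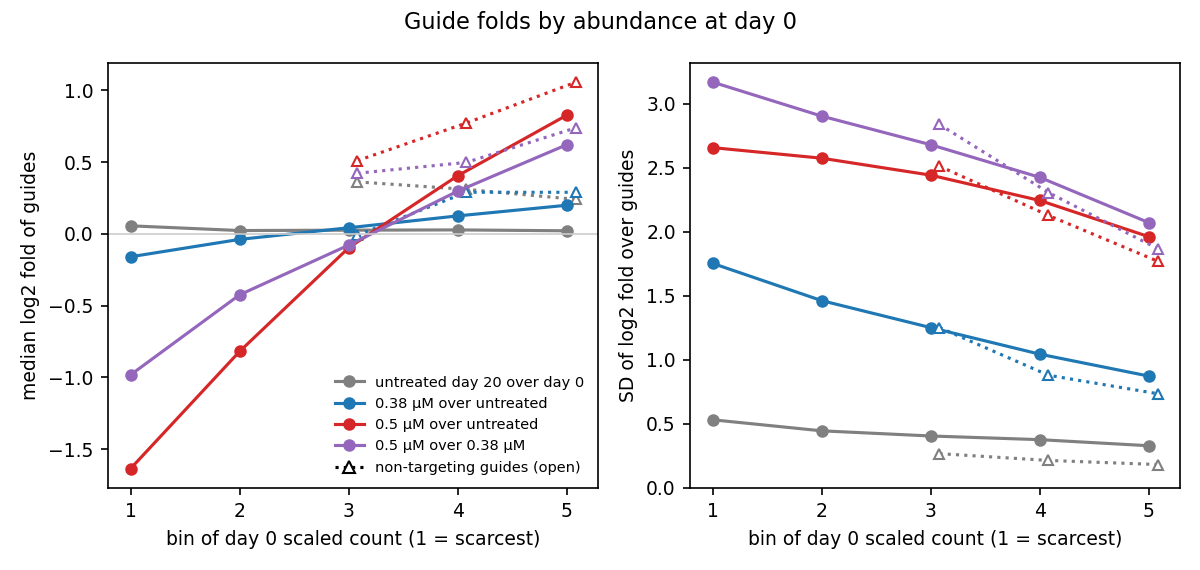
Median log2 fold (left) and SD of log2 fold (right) of guides by bin of scaled count (bin 1 is the scarcest of 5) at day 0, for 4 comparisons (colours), with targeting guides as filled circles and non-targeting guides as open triangles where at least 50 of them fall in a bin. In 0.5 over 0.38 µM the median climbs over the bins by more than in 0.38 µM over untreated, while the SD declines.

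Between the doses the calls were nearly even in both directions under median-ratio scaling. By the median of its guides, 5056 of 19013 genes were higher at 0.5 µM (26.6%) and 5251 were lower (27.6%), so that 49.1% of calls were gains. With scaling by total counts, which moves the median of all genes to -1.61, the gains numbered 775 and the losses 12307, so that 5.92% of calls were gains. With scaling on the median of non-targeting guides, which moves it to -0.65, there were 2666 gains and 7854 losses (25.3% gains). Directions below hold relative to the median guide. With every kept guide past the fold, 425 genes were higher (2.24%) and 499 were lower (2.62%), of which 70 and 82 had 3 kept guides. The filter lets in guides that are high in 1 of the 2 libraries; with guides chosen by a day 0 count of 100 instead, 414 genes were higher and 460 lower, sharing 398 and 449 with these. For 0.38 µM over untreated the same counts were 40 (0.21%) and 81 (0.424%) of 19093, and by the median 950 (4.98%) and 1636 (8.57%). For 0.5 µM over untreated they were 397 (2.08%) and 647 (3.39%) of 19091, and by the median 4789 (25.1%) and 5810 (30.4%). Without drug the counts were small: for untreated over day 0, 0 of 19100 genes were higher in every guide and 22 were lower (0.115%), and by the median 230 were lower (1.2%). Between the doses 37.0% of single targeting guides were higher and 37.4% were lower. How many genes would have every guide past the fold if guides moved independently was not tested.

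The gain with the highest median among genes with every kept guide past the fold was RILP. RILP, an adaptor that ties Rab7 to the transport of lysosomes, had 345, 990, 1902 and 1999 counts at 0.5 µM, against 0, 236, 99 and 12 counts at 0.38 µM. The median log2 fold was 6.66, and 6.36 with the guide at 0 set to 3 counts. Its guides in untreated cells had 137, 453, 226 and 330 counts. Over untreated its median log2 fold was -2.625 at 0.38 µM and 3.61 at 0.5 µM. The gain thus joined a fall at 0.38 µM to a rise at 0.5 µM. SF3B2, a splicing factor of the U2 particle, had 1577, 2220, 2756 and 556 counts at 0.5 µM, against 123, 255, 708 and 45 counts at 0.38 µM (median 4.89). HSD17B10, a mitochondrial dehydrogenase, had a median of 6.53 over 3 kept guides, and TIGAR, a phosphatase of sugar metabolism, one of 6.31, also over 3. MRPL48, a protein of the mitochondrial ribosome, had 61793, 1889 and 1164 counts at 0.5 µM over its 3 kept guides, against 169, 130 and 258 counts at 0.38 µM (median 5.42). MYL12B (4.88) and XYLT2 (4.80), with 4 kept guides, and KRTAP6-3 (5.21), MTPN (4.88) and CACFD1 (4.61), with 3, completed the 10. The guide of CACFD1 that the count filter removed had 0 counts at 0.5 µM and 35 counts at 0.38 µM, and that of HSD17B10 had 0 and 16, so those 2 guides went the other way.

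The losses in which every kept guide passed the fold were led by FOXL1, a forkhead transcription factor, with a median of -6.20 over 3 kept guides. The FOXL1 guide that the count filter removed had a scaled count of 6.83 at 0.38 µM. The gene's lowest guide at 0.5 µM had 7.88, so the removed guide was not lower. CXCL14, a chemokine, had 0, 18 and 3 counts at 0.5 µM over its 3 kept guides, against 394, 888 and 1611 counts at 0.38 µM. Its median was -6.09, and -4.73 with the guide at 0 set to 3 counts. PSMD7, a subunit of the proteasome, followed with -5.60, or -4.23 on that bound, over 3 kept guides. JUN, a subunit of the AP-1 transcription factor, had 34, 24, 7 and 15 counts at 0.5 µM, against 421, 1675, 615 and 1026 counts at 0.38 µM (median -4.35). All 4 JUN guides had been higher at 0.38 µM than in untreated cells, where they had 188, 318, 69 and 474 counts. ZMYND19 had 9, 9, 13 and 18 counts at 0.5 µM, against 892, 692, 372 and 1313 counts at 0.38 µM (median -4.40). TPM1, a tropomyosin (-4.95, 3 kept guides), PLXNB3, a semaphorin receptor (-4.53), OSBPL3 (-4.46, or -4.19 with its guide at 0 set to 3 counts) and NUTM2B (-4.38, 3 kept guides) were also among the largest losses. The guide removed from TPM1 had a scaled count of 3.42 at 0.38 µM. The lowest TPM1 guide at 0.5 µM had 7.88, so that guide was not lower either.

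Genes called in either direction between the doses lay on the other side at 0.38 µM more often than genes in general. Both comparisons share the 0.38 µM library, so these values are given side by side only. The 425 genes higher in every guide had a median of -0.34 for 0.38 µM over untreated, and 76 of them (17.9%) were lower there, against 8.57% of all genes. The 499 genes lower in every guide had a median of 0.38, and 60 of them (12.0%) were higher there, against 4.98% of all genes. For 0.5 µM over untreated, 403 of the 425 were higher, against 25.1% of all genes, and 491 of the 499 were lower, against 30.4%. The genes had been chosen by the same 0.5 µM library, so these last counts were largely fixed by that choice.

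Few genes kept 1 direction over both steps of dose in every guide. Over 19089 genes, every guide was in the order untreated below 0.38 µM below 0.5 µM in 86 (0.451%). The reverse order, with 0.5 µM lowest and untreated highest, held in 28 (0.147%). These 2 counts were 4 and 597 with scaling by total counts and 12 and 171 on non-targeting guides, so that the balance turned round. Among these 28 were EIF1, which selects start codons, the ribosomal proteins RPL4 and RPL7A, the proteasome subunit PSMB2, the recombination factor RAD51C and the cohesin subunit SMC3, named after their values were seen. In 90 genes (0.471%) every guide was highest at 0.38 µM and lowest at 0.5 µM, and in 60 (0.314%) lowest at 0.38 µM and highest at 0.5 µM. The order with 0.5 µM between the others and 0.38 µM lowest held in CDK6, ERI1 and FAM124A (0.0157%), and that with 0.38 µM highest in 0.

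When each step had to reach a log2 fold of 1 in every guide, SLC43A1 and WDR20 were the only steady gains (0.0105%) and there were 0 steady losses. WDR20, a cofactor that activates the deubiquitinases USP12 and USP46, had 42672, 24514, 28929 and 50275 counts at 0.5 µM, against 34340, 23703, 6637 and 11232 counts at 0.38 µM. In untreated cells its guides had 864, 983, 717 and 908 counts. Its log2 folds between the doses were 1.93, 1.67, 3.74 and 3.78, with a median of 2.84, and all 4 guides were high at both doses. With scaling by total counts neither gene passed this rule, and EIF1, RPL4, SMC3 and TBCA were steady losses instead; with scaling on non-targeting guides both genes passed, with EIF1 and RPL4 as losses. MRPL48 was lowest at 0.38 µM by such steps (0.00524%). COMTD1 and KL were highest there (0.0105%), with 29 to 57 and 6 to 39 counts at 0.5 µM, against 904 to 2196 and 602 to 1759 counts at 0.38 µM.

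Genes that stood out at 0.38 µM were followed to 0.5 µM with day 0 as the reference, so that the comparisons share no library. Of the 40 genes with every guide higher for 0.38 µM over untreated, 21 of 39 that could be measured (53.8%) had a median past the fold for 0.5 µM over day 0, against 25.6% of all genes. Every guide was higher in 8 of them, EIF2AK4, PAPD5, SLC43A1, SLC43A2, SOBP, TFAP4, TRIP12 and WDR20, against 2.2% of all genes. Every guide was lower in COMTD1 and KL, and 6 genes were lower by their median. Of the 81 genes with every guide lower at 0.38 µM, 56 (69.1%) were lower at 0.5 µM over day 0, against 31.2% of all genes. Every guide was lower in 12, CDK6, COPS2, EIF1, EIF2B2, POLR1C, RPL15, RPL4, RPL8, SDHB, TBCA, TMEM131 and ZNHIT2, against 3.86% of all genes. The day 0 reference also takes in loss without drug. For untreated over day 0, 7 of the 81 (8.64%) were lower by their median, against 1.2% of all genes. RPL8 was lower there in every guide, and it was higher in every kept guide at 0.5 than at 0.38 µM. Abundance at day 0 was not taken into account here.

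The carried gains differed in how far they moved between the doses. EIF2AK4 encodes GCN2, the kinase that senses uncharged transfer RNA, and its guides had 5060, 10741, 3183 and 3889 counts at 0.5 µM, against 2485, 17701, 3972 and 2874 counts at 0.38 µM. In untreated cells they had 81, 711, 866 and 410 counts, with a median fold of -1.24 over day 0. All 4 scaled folds between the doses were above 0, at 2.64, 0.90, 1.30 and 2.06, and the SD of 0.78 was below that of all but 536 of 17515 genes. That SD was not compared with genes of like count either. As a share of all counts, which amounts to scaling by total counts, EIF2AK4 held 0.0365% at 0.5 µM and 0.0443% at 0.38 µM. SLC43A2, a second transporter of large neutral amino acids, had 2632, 2808, 5817 and 10906 counts at 0.5 µM, against 5919, 4909, 4376 and 3818 counts at 0.38 µM. Its scaled folds were 0.45, 0.81, 2.03 and 3.13, with a median of 1.42 that turned to -0.24 with scaling by total counts. TRIP12, a ubiquitin ligase, had 8116, 3853, 5726 and 394 counts at 0.5 µM, against 2738, 2029, 3502 and 2292 counts at 0.38 µM, so that 3 guides gained and 1 fell back. TFAP4, a transcription factor, had a median of 0.71 and 1 guide that stood out, with 17807 counts at 0.5 µM and 4465 counts at 0.38 µM.

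EIF1 was a loss that continued. Its guides had 13, 2, 3 and 28 counts at 0.5 µM, against 206, 70, 81 and 131 counts at 0.38 µM, and they had 929, 575, 404 and 847 counts in untreated cells. The median fold between the doses was -2.37, and every guide was lower at each step, with the smallest fold between the doses at -0.57. RPL4 had 26, 3, 3 and 16 counts at 0.5 µM, against 231, 20, 28 and 179 counts at 0.38 µM.

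NF2, a suppressor of growth in the Hippo pathway, had 1435, 227, 9 and 12 counts at 0.5 µM, against 1695, 1684, 1427 and 631 counts at 0.38 µM, while its untreated guides had 330, 269, 175 and 311 counts. All 4 guides were high at 0.38 µM, and at 0.5 µM 2 stayed above untreated and 2 dropped far below it on the scaled measure. The median fold over untreated was -0.47 at 0.5 µM and 2.54 at 0.38 µM. ATPAF1, an assembly factor of ATP synthase, had medians of 0.52 at 0.5 µM and 2.38 at 0.38 µM over untreated. PPL, a desmosomal plakin, had 3.64 at 0.5 µM and 2.58 at 0.38 µM over untreated. Its 4 guides stayed together between the doses, with folds of 0.65 to 2.08 and an SD of 0.68.

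RAD18, the ubiquitin ligase that marks PCNA at stalled forks, had 34, 281, 1188 and 39 counts at 0.5 µM, against 119, 77, 531 and 103 counts at 0.38 µM, and its untreated guides had 1009, 854, 907 and 813 counts. All 4 were low at 0.38 µM, and at 0.5 µM 2 remained low while the other 2 stood at or above untreated on the scaled measure. PHF10, a subunit of PBAF chromatin remodellers, had 4634, 85, 9 and 3261 counts at 0.5 µM, against 192, 68, 114 and 319 counts at 0.38 µM, so that 3 guides were up and 1 was down. AP1S1, an adaptor of vesicle coats, had 0, 1390, 0 and 6 counts at 0.5 µM, against 378, 836, 559 and 298 counts at 0.38 µM. Its median was -4.84 (-4.16 with guides at 0 set to 3 counts), with 1 guide going against the other 3. LDOC1L, now named RTL6, had 281, 259, 46 and 115 counts at 0.5 µM, against 1542, 2776, 1061 and 2333 counts at 0.38 µM, with all 4 guides lower and a median of -2.25.

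Gene lists gave medians that were small beside the scatter of single genes. Between the doses the median over all genes was 0.00, 50.1% of genes were above 0, and the 28 lists lay between -1.07 and 0.88. Within lists the genes at the quartiles mostly lay above and below 0. Of 373 olfactory receptor genes, 95 (25.5%) were higher and 103 (27.6%) were lower, 6 with every guide higher and 11 with every guide lower, close to the 26.6% and 27.6% of all genes. Every kept guide was higher in 2.24% of all genes and lower in 2.62%. The member counts below are to be read beside these shares.

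Among DNA repair lists the Fanconi anaemia pathway, which unhooks crosslinks between strands, had medians of -1.45 at 0.5 µM and -0.88 at 0.38 µM over untreated, and 0.13 between the doses. Of its 21 genes 7 were higher and 4 were lower at 0.5 µM than at 0.38 µM. FANCB, of the core complex, had 34, 91, 146 and 38 counts at 0.5 µM, against 426, 1818, 1374 and 747 counts at 0.38 µM, and it was lower in every guide. FANCI, which the core complex ubiquitinates, had 20, 20, 29 and 25 counts at 0.5 µM, against 160, 544, 370 and 496 counts at 0.38 µM, and it was lower in every guide too. Homologous recombination had medians of -1.42 at 0.5 µM and -0.84 at 0.38 µM over untreated, and -0.32 between the doses, with 6 of 24 genes higher and 11 lower. With a mean count of 100 as the filter, both medians between the doses changed sign. They became 0.30 for homologous recombination and -0.59 for the Fanconi list. The ATR checkpoint had -1.25 at 0.5 µM and -0.06 at 0.38 µM over untreated, and 3 of 14 genes were higher and 5 lower between the doses. Mismatch repair had the lowest median of the lists between the doses, -1.07 over 8 genes, of which 1 was higher and 4 were lower, and 0 had every guide past the fold. Nucleotide excision repair had a median of 0.16, with 6 of 22 genes higher (27.3%) and 6 lower (27.3%), close to the shares of all genes. With scaling by total counts its median became -1.39, and that of the Fanconi list -1.37. Its helicase ERCC2 (3.88) and its transcription-coupled factor ERCC6 (2.24) were higher in every guide, as was XRCC4 (2.99, 3 kept guides) of the 12 end joining genes measured.

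Lists of genes that cells need to grow were lower over untreated at 0.5 µM than at 0.38 µM, with the untreated library shared. Proteasome genes had medians of -1.27 at 0.5 µM and -0.28 at 0.38 µM over untreated. Between the doses 5 of 30 were higher (16.7%) and 10 were lower (33.3%), against 26.6% and 27.6% of all genes. Cytosolic ribosomal proteins had -1.03 at 0.5 µM and -0.75 at 0.38 µM over untreated, and between the doses 14 of 73 were higher and 26 were lower. Both medians between the doses depended on the count filter. With a mean count of 100 as the filter, the proteasome median turned from -0.50 to 0.49. The median of cytosolic ribosomal proteins turned from -0.23 to 0.14. Without a count filter the 2 medians were -0.03 and -0.10. Replication genes had a median of -0.06 between the doses, with the helicase subunit GINS2 (2.49) higher in every kept guide (3) and the origin kinase CDC7 (-3.39) lower in every guide.

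Among the other lists, large neutral amino acid transporters had a median of 0.88 between the doses. Of 12 genes, 6 were higher (50%) and 4 lower (33.3%), against 26.6% and 27.6% of all genes. SLC43A1 was higher in every guide, while SLC3A2, the chain that carries LAT1 to the membrane, was lower in every kept guide (median -3.18, 3 kept guides). The SLC3A2 guide that the count filter removed had 0 counts at 0.38 µM, so it was not lower at 0.5 µM. The list of KEAP1, NRF2 and glutathione genes also had 0.88, with 5 of 15 genes higher and 1 lower. These medians became -0.77 and -0.76 with scaling by total counts. Chromatin remodellers of the BAF and PBAF families had 0.55 between the doses, with 8 of 17 genes higher and 2 lower, and that median became -1.02 with scaling by total counts and -0.085 on non-targeting guides. Their ATPase SMARCA4 had 2009, 4313, 482 and 9878 counts at 0.5 µM, against 1362, 1385, 484 and 4497 counts at 0.38 µM, and it was higher in every guide (median 2.47). ARID1A, a BAF subunit chosen after its values were seen, had 386, 5777, 2451 and 10014 counts at 0.5 µM, against 1464, 4479, 1666 and 2095 counts at 0.38 µM, so that 3 guides gained and 1 had a fold of -0.30. Among mTORC1 activators FLCN (-2.27) and its partner FNIP1 (-4.29) were lower in every guide, and among mTORC1 suppressors TSC2 (1.60) was higher in all 3 kept guides, a median that became -0.046 with scaling by total counts.

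**Figure D5:**
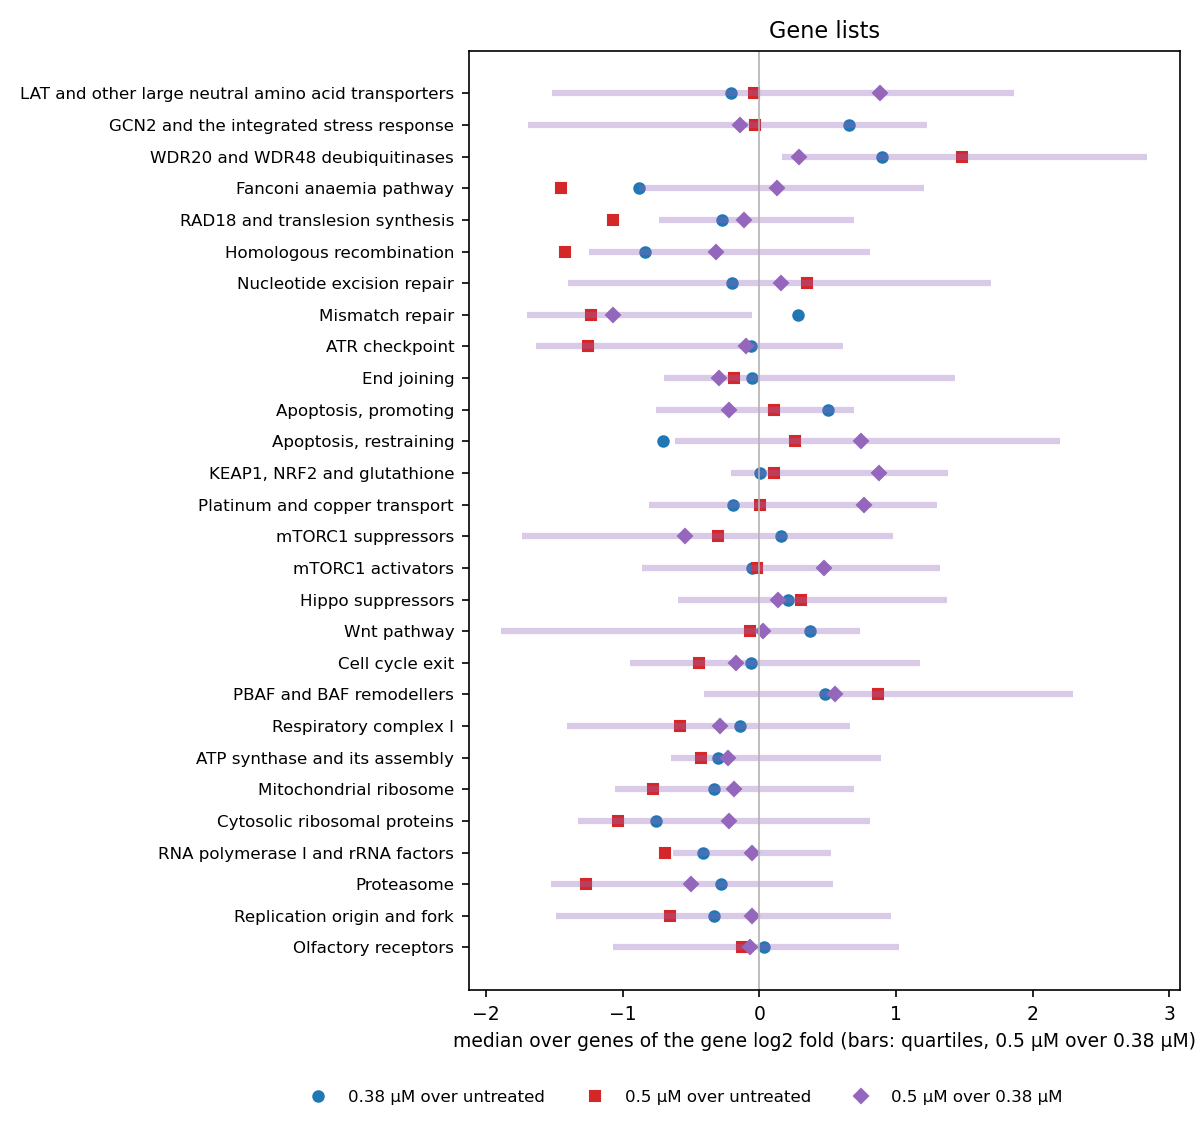
Median over genes of the gene log2 fold (horizontal axis) for 28 gene lists (vertical axis), in 0.38 µM over untreated (circles), 0.5 µM over untreated (squares) and 0.5 over 0.38 µM (diamonds), with bars between the quartiles of the last. The diamonds lie between -1.07 and 0.88, and most of the bars cross 0.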

How the data were processed

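For the SW620 knockout screen the authors deposited raw counts per guide and, separately, a normalized signal. Each column of that signal equals its count column times 1 constant, whose derivation the labels do not state. The submitters' processing notes list cutadapt 4.0 and MAGeCK 0.5.7, without their settings. No build is named in these sources, so no coordinates are printed. All columns matched a sample by name. Of 19114 symbols in the files 17852 are current, 1182 are older and 80 matched no name.

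Size factors are medians of ratios over guides above 0 in all 4 libraries (Python 3.11.15, pandas 2.3.3, numpy 2.4.6, scipy 1.17.1, matplotlib 3.10.9). A gene's value is the median over its kept guides, and genes with 3 or more kept guides were counted. The scripts were tested on simulated data. That test used a smaller pseudocount, a higher count filter and less scatter between guides than the comparison of the doses. With 1 library per condition there is no test. Share intervals are exact binomial at 95 percent, and cover counting error only, since PCR reads are not independent molecules.

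Members and gene lists were chosen with earlier results of these data known. Named were, for 0.5 over 0.38 µM, up to 10 genes per direction with the largest median among those past the fold in every guide, genes called earlier at either dose, list members past the fold in every guide (otherwise the 2 with the largest median), genes of the 10 most abundant guides, the 10 widest ranges and genes in dose order by steps of 1. Other scalings, pseudocounts, filters, thresholds and summaries were tried. Results for some genes the rule selects are left out.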

Additional observations from a re-analysis of the deposited data

How the results depend on the processing

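Directions and counts depended most on the scaling. With scaling by total counts 775 genes were higher and 12307 lower at 0.5 than at 0.38 µM, 29 and 2357 in every guide, and every guide was in ascending dose order in 4 genes and in descending order in 597. On non-targeting guides 2666 were higher, 149 higher and 969 lower in every guide, and 12 and 171 genes were in those orders. At a log2 fold of 2 the counts were 1832, 2224, 85 and 136, and with steps of 1 there were 2 steady gains and 0 steady losses. With guides at or above the day 0 median alone, an alternative chosen after seeing the data, 7360 genes could be counted. Of these, 356 were higher and 144 were lower in every guide, against 425 and 499 of 19013 genes in the main setting. The scatter with those guides was 2.03. SLC43A1 had a median of 1.40 by total counts, 2.39 on non-targeting guides, 3.07 in the authors' table and 2.96 as a mean. The SD of non-targeting guides lay at 2.01 by total counts, 2.03 on non-targeting guides, 2.06 and 1.99 with pseudocounts of 1 and 20, 2.03 without a count filter, 2.03 with either filter at 100 and 2.02 from quartiles. Within-gene scatter between the doses was 2.45 and 2.21 with pseudocounts of 1 and 20, 2.37 without a filter, 2.33 with a mean count of 100, 2.37 with a day 0 count of 100 and 5.28 as a range. For 0.5 µM over untreated it was 2.27, 2.05, 2.11 (mean count of 100) and 4.88 (range). For 0.38 µM over untreated it was 0.99, 0.93, 1.01 (no filter), 0.86 (mean count of 100), 1.01 (day 0 count of 100) and 2.19 (range). For untreated over day 0 it was 0.26 (pseudocount of 20), 0.28 (no filter), 0.25 (mean count of 100) and 0.60 (range). By total counts the medians of PPL (-0.18), RAD18 (-0.11), TSC2 (-0.046), SLC43A2 (-0.24) and SOBP (-0.29) changed sign, and CDK6 did so on non-targeting guides (-0.081). As means over guides TBL3 (1.23), MTBP (0.56), RNASE11 (0.14) and DEFB108B (0.57) changed sign. The cause of these changes was not tested beyond the construction of each setting. No paired analysis was possible because each condition has 1 library and the screen has no second replicate. Depth limits guides with a few counts at 0.5 µM, where the median guide had 174 counts.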
